A study of Mus musculus with 2 samples.

Results

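The cells described here are 110 neurons that carried both Isl1 and Ebf1, the pair of transcription factors that marks the early striatal projection neuron lineage. They were 2.75% of the 4001 cells of 1 pooled single-cell RNA library (95% interval 2.26% to 3.30%, exact binomial, counting error only). They were 4.57% of the 2407 cells that passed the same gate for postmitotic neurons (3.77% to 5.48%). A member had a Tubb3 value of at least 10, a Hes5 value under 3 and a summed Top2a and Mki67 value under 3, which selects neurons outside the cell cycle. It also had an Isl1 value of at least 1, an Ebf1 value of at least 3 and an Lhx8 value under 3, which leaves out Isl1 neurons of the cholinergic lineage. These 7 genes chose the cells, so their levels are a description and not a finding.

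The tissue was the medial ganglionic eminence (MGE), the ventral forebrain swelling that makes interneurons of the cortex and projection neurons of the basal forebrain and pallidum. It was dissected from CD-1 mouse embryos of stage E11.5. Libraries were made by MULTI-seq, which tags cell suspensions with lipid-linked barcodes so that they can be pooled for a 10x Chromium run. The pool joined MGE suspensions for the enhancers hs192 and hs799. Of its 6 sample barcodes, 4 marked cells sorted for GFP (2 per enhancer) and 2 marked ungated cells (1 per enhancer), so the sort can set the share of any cell type. No map from cells to barcodes was used, the pool is therefore 1 sample, and no difference below can be set against a spread between embryos. Of the 110 neurons, 49 carried Xist without a Y-linked transcript, 49 carried Y-linked transcripts without Xist, 3 carried both and 9 neither, so cells of both sexes were present.

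Striatal projection neurons are the GABAergic output cells of the striatum and arise mainly in the lateral ganglionic eminence, next to the MGE. Those of the direct pathway project to the substantia nigra and internal pallidum, and in the mouse their differentiation needs Isl1 and Ebf1. They later make substance P from Tac1, while neurons of the indirect pathway make enkephalin from Penk. Isl1 also acts in the cholinergic lineage of the MGE, where it works with the LIM factor Lhx8.

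The deposited values are whole numbers per gene and cell that had already been evened out in depth, so they are treated as scores and not as counts. A level is the summed value of a gene per 10000 summed values of a group of cells, and its standard deviation (SD) is taken over single cells of the 1 library. The 110 neurons had cell totals from 11127 to 13981 (median 13326) and a median of 4330.5 genes per cell. The 2297 other neurons of the gate had totals from 10475 to 14196 (median 11939) and a median of 3801 genes. Among them, Isl1 Lhx8 neurons had Isl1 of at least 1 and Lhx8 of at least 3. Isl1 neurons low in Ebf1 and Lhx8 had both under 3. Lhx6 neurons had Lhx6 of at least 3, no Isl1, and Ebf1 and Lhx8 under 3. Progenitors, outside these neurons, had Hes5 of at least 3 and Tubb3 under 10. A log2 ratio compares 2 levels after 0.05 per 10000 is added to each, and a gene was compared where at least 10% of the cells of either group had a value. A gene that met this limit in 1 group alone was favoured by it towards a higher level in that group. "Higher" and "lower" mean at least 2-fold apart, without a test, because cells of 1 library are not replicates.

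Ebf1 was absent from most neurons. Of the 2407 neurons, 2121 (88.1%) had no Ebf1 value, 166 had a value of 1 or 2, and 120 had at least 3. Of those 120, 110 (91.7%) were members. The Ebf1 value of a member ranged from 3 to 85 with a median of 34, and 87 members (79.1%) had at least 12. The Isl1 value ranged from 1 to 43 with a median of 12. No cell missed membership through the Tubb3, Hes5 or cell cycle limit alone, 5 missed it for lack of Isl1, 4 through Lhx8 and 326 through Ebf1. In the plot of both values, the 110 neurons spread along the Ebf1 axis from the limit upwards, and the 166 neurons with a value of 1 or 2 lie just below it.

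**Figure D1:**
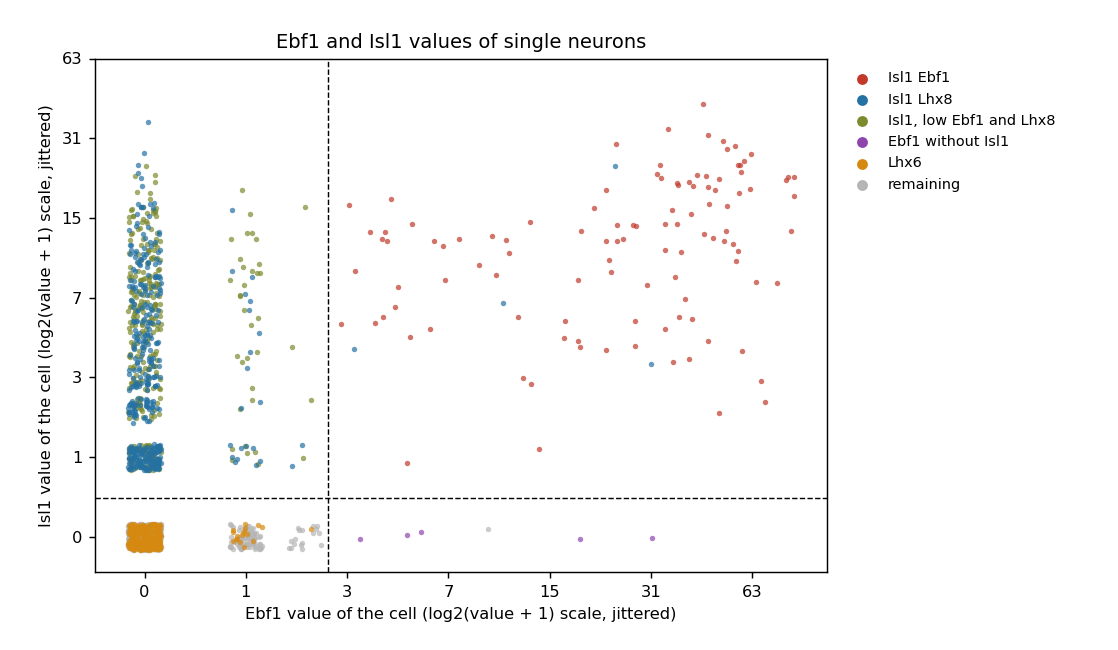
Ebf1 value (horizontal) and Isl1 value (vertical) of each of the 2407 neurons on log2(value + 1) axes with jitter, coloured by group; dashed lines mark the limits of the rule. The 110 Isl1 Ebf1 neurons (red) run from an Ebf1 value of 3 to 85, while 2121 neurons have none.

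Cells near the limit had some of the same features. The 3 members with an Ebf1 value of 3 had a Meis2 level of 5.16 and a Zfp503 level of 0.272, and the 8 members with a value of 4 had 10.5 and 2.15. Just outside, the 4 Isl1 neurons with an Ebf1 value of 2 had a Meis2 level of 4.01 and a Zfp503 level of 0.954, and the 32 with a value of 1 had 7.48 and 1.23. The 290 Isl1 neurons with no Ebf1 value and Lhx8 under 3 had a Meis2 level of 3.37 and a Zfp503 level of 0.171. Levels on both sides of the limit thus overlapped, and cells with an Ebf1 value of 1 or 2 had more Meis2 and Zfp503 than Isl1 neurons with no Ebf1 value.

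The cells were set against 7 striatal markers that the rule did not use, which were chosen with earlier results of these data known. Of these, 4 were higher than in other neurons (Meis2, Zfp503, Tac1 and Rarb), while Foxp1, Foxp2 and Bcl11b were less than 2-fold apart. Zfp503, Tac1 and Rarb met the 10% limit in Isl1 Ebf1 neurons alone, so this count does not bear on their direction. Meis2, a TALE homeodomain factor of the lateral eminence and its striatal neurons, had values from 0 to 55 (median 14) in the Isl1 Ebf1 neurons, and from 0 to 65 (median 0) in other neurons. Its level was 12.8 (SD 9.12) in Isl1 Ebf1 neurons and 0.823 (SD 3.39) in other neurons, a log2 ratio of 3.88. A Meis2 value was found in 95.5% of the Isl1 Ebf1 neurons (89.7% to 98.5%) and 22.0% of other neurons. Meis2 was not confined to the lineage, since 91.1% of the progenitors had a value, at a level of 3.45.

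Zfp503, a zinc finger repressor known from the developing striatum, had values from 0 to 11 (median 3) in Isl1 Ebf1 neurons and from 0 to 10 (median 0) in other neurons. Its level was 2.42 (SD 1.90) in Isl1 Ebf1 neurons and 0.0621 (SD 0.462) in other neurons, a log2 ratio of 4.46. It was present in 85.5% of the Isl1 Ebf1 neurons (77.5% to 91.5%), against 3.40% of other neurons and 6.42% of progenitors. Most Isl1 Ebf1 neurons and few other neurons therefore carried it.

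Tac1, the precursor of substance P, had values from 0 to 99 (median 0) in Isl1 Ebf1 neurons and from 0 to 27 (median 0) in other neurons. Its level was 4.35 (SD 10.7) in Isl1 Ebf1 neurons and 0.0646 (SD 0.696) in other neurons, a log2 ratio of 5.26. A value was present in 40.9% of the Isl1 Ebf1 neurons (31.6% to 50.7%), against 3.31% of other neurons and 2.64% of progenitors, which should lack the gene. After each cell was thinned to 10000 values the shares were 36.4%, 2.74% and 2.17%. The 2 highest cells, at 99 and 89, held 30.2% of all Tac1 of the 110 neurons, so the level rests in part on them.

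**Figure D2:**
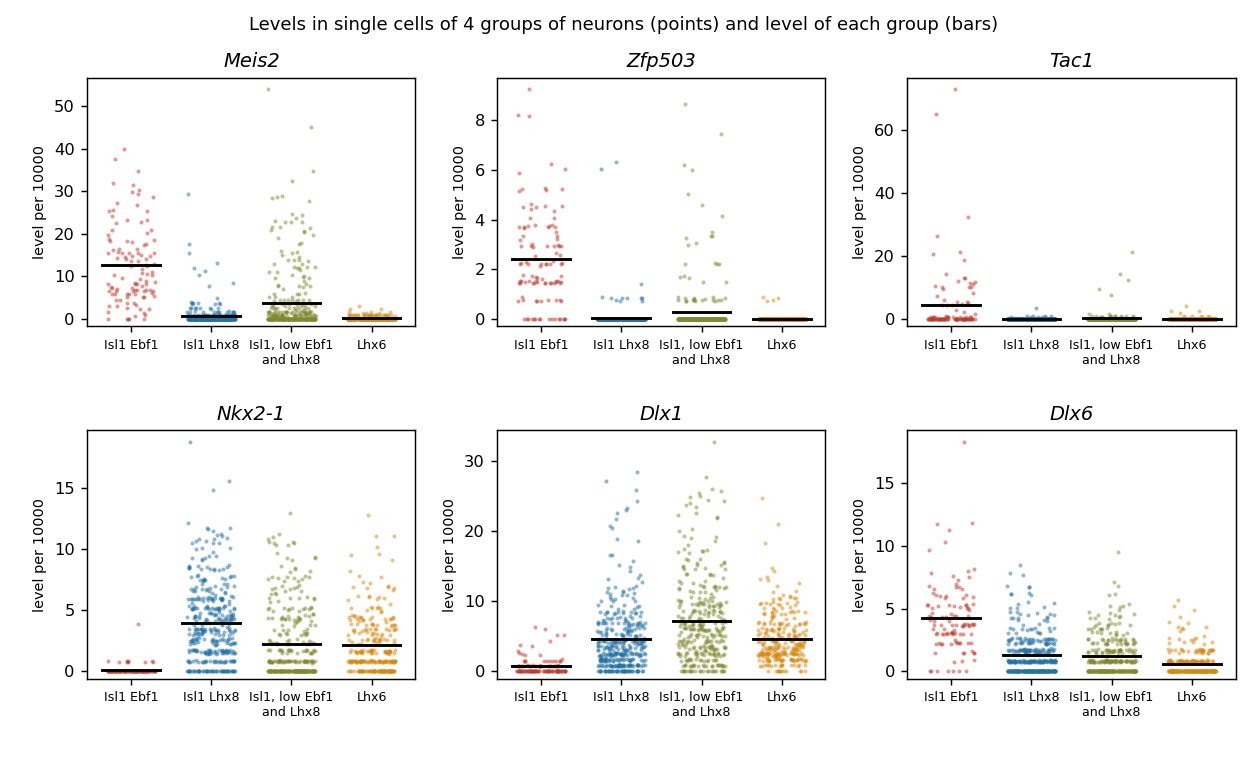
Level per 10000 of 6 genes in single cells (points) and over each group (bars), for Isl1 Ebf1 neurons (110 cells), Isl1 Lhx8 neurons (386), Isl1 neurons low in Ebf1 and Lhx8 (326) and Lhx6 neurons (284). Of the 4 groups, the Isl1 Ebf1 neurons have the highest levels of Meis2, Zfp503, Tac1 and Dlx6 and the lowest of Nkx2-1 and Dlx1.

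Because Tac1 was found in more of the Isl1 Ebf1 neurons and is a known product of these neurons, its promoter was searched for the core homeodomain motif TAATTA, which reads the same on both strands. The 250 bases before the Tac1 start site lie at chr6:7554811-7555060 on the plus strand (GRCm38.p6, RefSeq), with the motif in capitals.
Tac1: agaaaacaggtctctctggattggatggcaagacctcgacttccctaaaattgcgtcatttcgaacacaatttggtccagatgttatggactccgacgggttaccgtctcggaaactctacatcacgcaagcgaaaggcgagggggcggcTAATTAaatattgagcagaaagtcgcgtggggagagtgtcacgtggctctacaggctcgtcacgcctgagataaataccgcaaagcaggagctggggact
The TAATTA begins 100 bases before the start site. Over windows from 250 bases before to 50 after a start site, 1738 of 32851 promoters (5.29%) held TAATTA. Among the 6 promoters of Ebf1, Isl1, Tac1, Zfp503 and Meis2, TAATTA was found in that of Tac1 alone. A match is a description of letters and not of a binding site.

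Across the genome, 9273 genes were compared between the Isl1 Ebf1 neurons and the other neurons, without the genes of the rule. Of these, 456 (4.92%) were higher and 258 (2.78%) lower in Isl1 Ebf1 neurons, with a median log2 ratio of 0.07. Against the 386 Isl1 Lhx8 neurons, the cholinergic precursors, 9316 genes were compared, of which 404 (4.34%) were higher and 276 (2.96%) lower. Against the 326 Isl1 neurons low in Ebf1 and Lhx8, 347 of 9332 (3.72%) were higher and 269 (2.88%) lower. Against 284 Lhx6 neurons, 599 of 9321 (6.43%) were higher and 319 (3.42%) lower. These are a part of the 1856 other neurons with an Lhx6 value, limited to those without Isl1 and low in Lhx8. These comparisons share the Isl1 Ebf1 neurons.

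The growth cone gene Gap43 was also high in the Isl1 Ebf1 neurons. It had values from 2 to 51 (median 21) in Isl1 Ebf1 neurons and from 0 to 57 (median 2) in other neurons, at levels of 17.6 (SD 8.33) and 3.58 (SD 5.01). The comparisons with other neurons and with Isl1 Lhx8 neurons were therefore repeated with only those neurons whose Gap43 value reached the lower quartile of the Isl1 Ebf1 neurons, a value of 15, an alternative chosen after seeing the data. Of the other neurons 161 did so, among them 75 Isl1 neurons low in Ebf1 and Lhx8 and 47 Isl1 Lhx8 neurons, and their Gap43 level was 18.5. Against these 161 neurons 187 of 9256 genes (2.02%) were higher and 142 (1.53%) lower, and of the 456 and 258 genes above, 152 (33.3%) stayed higher and 60 (23.3%) stayed lower. Against the 47 Isl1 Lhx8 neurons of high Gap43, 501 of 9459 genes were higher and 271 lower. Of the 404 and 276 genes called against all Isl1 Lhx8 neurons, 181 (44.8%) stayed higher and 61 (22.1%) stayed lower. For the groups of genes below, counts and log2 ratios against the 161 other neurons of high Gap43 follow the first ones. Each count is to be read beside the share over all genes. That share was 4.92% higher and 2.78% lower against other neurons, and 2.02% and 1.53% against the 161 neurons. A count near that share is no result about its group.

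**Figure D3:**
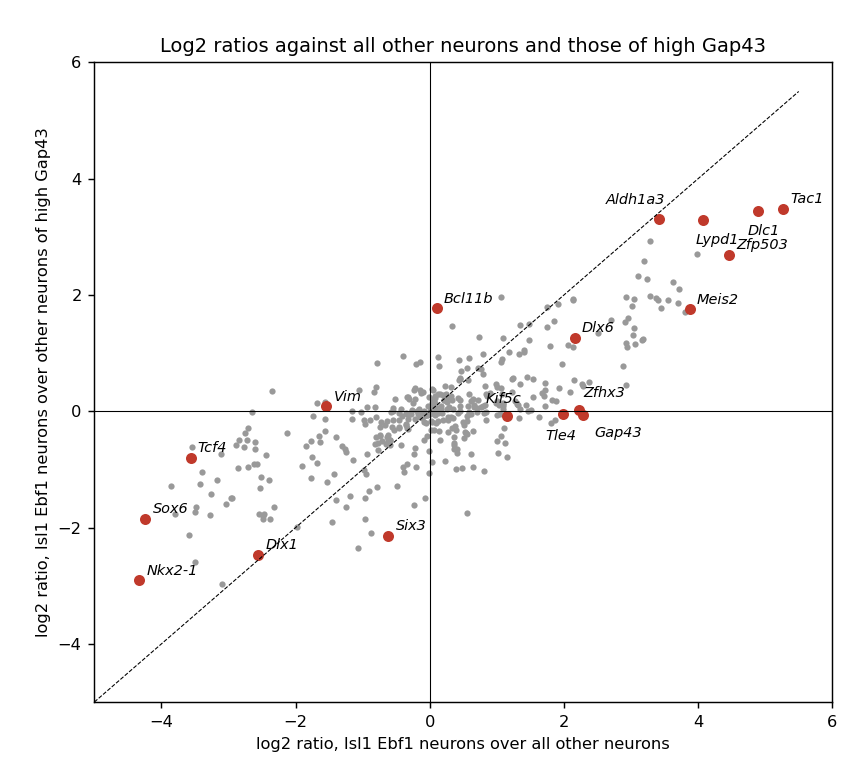
Log2 ratio of genes of the lists and leading genes in Isl1 Ebf1 neurons over all other neurons (horizontal) and over the 161 other neurons of high Gap43 (vertical); the dashed line marks equality. Tac1, Dlc1 and Zfp503 stay far above 0 on both axes, Nkx2-1 and Dlx1 far below, while Zfhx3, Tle4 and Kif5c lie near 0 on the vertical axis.

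Of 38 measured transcription factors of the striatal lineage, 26 were compared, 9 were higher and 3 lower in Isl1 Ebf1 neurons, with a median log2 ratio of 0.01. Besides Meis2 and Zfp503, the higher ones included Zfhx3 and Zfhx4, large zinc finger homeodomain factors, the corepressor Tle4, and Id4, an inhibitor of basic helix-loop-helix factors. Zfhx3 was at 16.3 (SD 7.07) in Isl1 Ebf1 neurons and 3.43 (SD 6.21) in other neurons, Tle4 at 8.34 (SD 5.45) and 2.06 (SD 3.54). Against the neurons of high Gap43, however, the log2 ratios of Zfhx3, Tle4, Id4 and Zfhx4 were 0.03, -0.05, -0.15 and -0.10. Those of Meis2, Zfp503 and Tac1 were 1.76, 2.69 and 3.48 there, and over the list 4 of 26 factors were higher and 4 lower.

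Among other factors of mature striatal neurons, Foxp1, Foxp2 and Rarb had low levels at this stage and Bcl11b a higher one. Foxp1, a forkhead factor of striatal neurons, was at 0.286 (SD 0.515) in Isl1 Ebf1 neurons and 0.413 (SD 0.826) in other neurons, and Foxp2 at 0.231 (SD 0.809) and 0.382 (SD 1.47). Rarb, a retinoic acid receptor of the striatum, was present in 13.6% of Isl1 Ebf1 neurons (7.84% to 21.5%) and 1.57% of other neurons, with log2 ratios of 1.48 and, against neurons of high Gap43, 1.23. Bcl11b, the zinc finger factor also known as Ctip2, was at 4.97 (SD 3.40) in Isl1 Ebf1 neurons and 4.61 (SD 3.84) in other neurons, a log2 ratio of 0.11. Its log2 ratio was 1.77 against neurons of high Gap43, where the level of Bcl11b was 1.42. Sp9, a zinc finger factor needed for indirect pathway neurons in the mouse, was lower, at 0.203 (SD 0.445) in Isl1 Ebf1 neurons and 3.60 (SD 3.32) in other neurons, and had a log2 ratio of -1.29 against neurons of high Gap43.

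Few genes of the direct and indirect pathways were detected. Beyond the rule's own genes, 3 direct pathway genes could be compared and 2 of them, Tac1 and the opioid receptor Oprm1, were higher. Both met the limit of 10% of cells in the Isl1 Ebf1 neurons alone, so this count does not bear on their direction. Oprm1 was at 0.147 (SD 0.440) in Isl1 Ebf1 neurons and 0.00214 (SD 0.0412) in other neurons, and 11.8% of Isl1 Ebf1 neurons carried it, with a log2 ratio of 1.84 against neurons of high Gap43. Of 4 indirect pathway genes compared, 0 were higher and 2 lower, Sp9 and the kainate receptor Grik3, and against neurons of high Gap43 0 were higher and 3 lower. Lhx6 neurons also carried both genes, Sp9 in 97.5% of them and Grik3 in 147 of 284. The count of lower genes therefore does not tell the 2 pathways apart. Penk was found in 0 of 110 Isl1 Ebf1 neurons, which allows a share of up to 2.73% of cells with a value (3 cells of 110), and the dopamine receptor Drd2 in 0.909% of them. Neither was seen in more than 0.218% of other neurons, so a difference was not detectable. The matrix held no row for Drd1 or Pdyn, which are not analysed here.

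Of 11 compared genes shared by all striatal projection neurons 3 were higher and 1 lower. Arpp21, a striatal phosphoprotein gene, was at 0.272 (SD 0.479) in Isl1 Ebf1 neurons and 0.0236 (SD 0.171) in other neurons. Cnr1, the cannabinoid receptor, was at 1.12 (SD 1.65) and 0.28 (SD 0.77), and Pde1b, a phosphodiesterase, at 0.189 (SD 0.426) and 0.0521 (SD 0.222). Their log2 ratios against neurons of high Gap43 were 1.11, 0.20 and 0.34, and 1 of the 11 genes was higher and 0 lower there. Arpp21 and Pde1b, but not Cnr1, met the limit on cells with a value in Isl1 Ebf1 neurons alone against other neurons. The count of 3 higher genes therefore does not bear on the direction of Arpp21 and Pde1b. Arpp21 met the limit in Isl1 Ebf1 neurons alone against neurons of high Gap43 as well.

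Genes of the MGE and its lineages were low. Nkx2-1, the homeodomain factor that sets MGE identity, was at 0.0978 (SD 0.425) in Isl1 Ebf1 neurons and 2.93 (SD 2.87) in other neurons, a log2 ratio of -4.33. An Nkx2-1 value was found in 9.09% of the Isl1 Ebf1 neurons (4.45% to 16.1%), against 78.0% of other neurons and 81.4% of progenitors. Of 8 compared genes of the cholinergic lineage 7 were lower, among them Zic1, at 0.363 (SD 0.842) in Isl1 Ebf1 neurons and 2.27 (SD 3.88) in other neurons, and Gbx1, at 0.0279 (SD 0.139) and 0.463 (SD 1.16). The median log2 ratio of that list was -2.06, and the 1 higher gene was Ache, the acetylcholine esterase. Ache met the limit on cells with a value in Isl1 Ebf1 neurons alone, which favoured a higher level there. Nkx2-1 and Gbx1 met it in other neurons alone, which favoured a higher level in those. Against neurons of high Gap43 3 of 6 were lower and 0 higher, with log2 ratios of -1.80 for Zic1, -0.49 for Gbx1 and 0.15 for Ache. The rule kept Lhx8 under 3, while 78.9% of other neurons had an Lhx8 value. These counts are thus not independent of the choice of cells. Against Isl1 neurons low in Ebf1 and Lhx8, 1 of 4 compared genes of the list was higher and 1 lower, with a median of -0.71.

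Of 15 compared genes of the cortical interneuron lineage 13 were lower and 0 higher, with a median log2 ratio of -2.96. Lhx6, the LIM factor of MGE interneurons, was at 0.147 (SD 0.299) in Isl1 Ebf1 neurons and 2.70 (SD 2.30) in other neurons, and Sox6, which acts downstream of it, at 0.0838 (SD 0.433) and 2.48 (SD 2.68). Npy, a peptide of interneurons, was at 0.0559 (SD 0.233) and 1.15 (SD 4.48). Sox6 and Npy, but not Lhx6, met the limit on cells with a value in other neurons alone, which favoured a higher level there. With neurons of high Gap43 as the comparison, the log2 ratios were -2.91 for Nkx2-1, -1.76 for Lhx6, -1.85 for Sox6 and -2.60 for Npy, and 8 of 12 compared genes of the list were lower. Sst was at 0.657 (SD 4.29) in Isl1 Ebf1 neurons and 0.750 (SD 5.20) in other neurons, but 1 cell held 61.7% of all Sst of the 110 neurons.

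The same genes were set against the other neurons that carried Isl1. The MGE factor Nkx2-1 was at 0.0978 in Isl1 Ebf1 neurons, against 4.0 (SD 3.15) in Isl1 Lhx8 neurons and 2.27 in Isl1 neurons low in Ebf1 and Lhx8. Zic1 was at 0.363, against 4.63 (SD 4.62) in Isl1 Lhx8 neurons and 0.509 in the Isl1 neurons low in both. Meis2 was at 12.8, against 0.629 (SD 2.39) in Isl1 Lhx8 neurons and 3.79 in Isl1 neurons low in both. Six3, a homeodomain factor of the striatal lineage, was at 0.782 (SD 2.23), against 1.81 (SD 2.57) in Isl1 Lhx8 neurons and 3.28 in Isl1 neurons low in both, and its log2 ratio against other neurons of high Gap43 was -2.14. Isl1 neurons low in both genes thus shared low Zic1 with the Isl1 Ebf1 neurons and substantial Nkx2-1 with the Isl1 Lhx8 neurons.

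The Dlx family, homeodomain factors that drive GABAergic neuron formation, was split. The list also holds the antisense transcripts Dlx1as and Dlx6os1, which are not homeodomain factors. Of its 6 compared genes, antisense transcripts included, 1 was higher and 4 lower, with a median log2 ratio of -2.55. Dlx1 was at 0.713 (SD 1.31) in Isl1 Ebf1 neurons and 4.43 (SD 4.32) in other neurons, and Dlx2 at 0.517 (SD 0.796) and 3.27 (SD 2.5). Dlx5 was at 3.39 (SD 2.12) in Isl1 Ebf1 neurons and 3.65 (SD 2.42) in other neurons, a log2 ratio of -0.11. Dlx6 was at 4.25 (SD 2.80) in Isl1 Ebf1 neurons and 0.914 (SD 1.31) in other neurons, a log2 ratio of 2.16. The Dlx pairs therefore differed, with Dlx1 and Dlx2 low and Dlx5 and Dlx6 not.

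The antisense transcript Dlx6os1, which overlaps Dlx6, differed in the opposite direction, at 0.692 (SD 0.984) in Isl1 Ebf1 neurons and 7.90 (SD 5.36) in other neurons, a log2 ratio of -3.42. Both lie on chromosome 6, Dlx6 at 6863334 to 6868568 on the plus strand and Dlx6os1 at 6820189 to 6871592 on the minus strand (GRCm38). The sources used here do not give whether counting used strand, so reads of the overlap cannot be told apart. The corresponding log2 ratios against neurons of high Gap43 were -2.47 for Dlx1, -1.77 for Dlx2, 0.34 for Dlx5, 1.26 for Dlx6 and -1.25 for Dlx6os1. Of 5 compared genes of the list 1 was higher and 3 were lower there, with the antisense Dlx6os1 among the lower ones.

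The machinery of GABA synthesis and transport was present. Gad2, a glutamate decarboxylase, had values from 0 to 21 (median 8) in Isl1 Ebf1 neurons and from 0 to 30 (median 8) in other neurons, at levels of 6.85 (SD 3.14) and 6.67 (SD 3.93). Slc32a1, the vesicular GABA transporter, was at 1.84 (SD 1.29) and 1.78 (SD 1.51). Gad1, the second decarboxylase, was at 0.328 (SD 0.506) in Isl1 Ebf1 neurons and 1.24 (SD 1.33) in other neurons, a log2 ratio of -1.77, and -0.52 against neurons of high Gap43. Slc17a6, the glutamate transporter of diencephalic neurons, was found in 1.82% of Isl1 Ebf1 neurons and 1.74% of other neurons. Of 16 measured genes of the glutamatergic list 1 was compared, and it was higher, with a log2 ratio of 2.16. Against neurons of high Gap43 1 was compared and 0 were higher, with a log2 ratio of 0.53. The summed level of the list was 0.810 in Isl1 Ebf1 neurons and 0.658 in other neurons. A count of 1 gene is no result about this list.

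Genes of the retinoic acid pathway, which acts in striatal development, were few. Aldh1a3, an enzyme that makes retinoic acid, was at 0.594 (SD 1.48) in Isl1 Ebf1 neurons and 0.010 (SD 0.144) in other neurons, a log2 ratio of 3.42. It was found in 22.7% of the Isl1 Ebf1 neurons (15.3% to 31.7%), against 0.784% of other neurons and 1.04% of progenitors. Crabp2, a carrier of retinoic acid, was lower, at 0.915 (SD 1.99) and 5.06 (SD 4.51). Of 8 compared genes of the pathway 3 were higher and 1 lower, as were 3 and 1 of 8 against neurons of high Gap43, where the log2 ratio of Aldh1a3 was 3.31 and that of Crabp2 -1.19. In both comparisons Aldh1a3 met the limit on cells with a value in Isl1 Ebf1 neurons alone. These counts therefore do not bear on its direction.

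Of 30 compared receptors of axon guidance 9 were higher and 3 lower, against 5 higher and 5 lower of 30 with neurons of high Gap43 as the comparison. Robo1 and Robo2, receptors for Slit proteins, were at 2.16 (SD 1.53) and 2.17 (SD 1.98) in Isl1 Ebf1 neurons, and at 0.783 (SD 1.02) and 1.02 (SD 1.57) in other neurons. Ephb1, an Eph receptor, was at 1.52 (SD 1.28) in Isl1 Ebf1 neurons and 0.152 (SD 0.465) in other neurons. Nrp2, a semaphorin receptor of interneuron migration, was lower, at 0.307 (SD 0.711) and 0.701 (SD 1.44). Over neurons of high Gap43 the log2 ratios were 1.06 for Robo1, 1.97 for Robo2, 1.6 for Ephb1 and -2.36 for Nrp2.

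Of 18 compared guidance ligands 5 were higher and 1 lower, and against neurons of high Gap43 3 were higher and 2 lower. The secreted semaphorin Sema3a was at 1.03 (SD 1.05) in Isl1 Ebf1 neurons and 0.0486 (SD 0.247) in other neurons, and Nrg1, the neuregulin that binds ErbB receptors, at 2.11 (SD 1.6) and 0.172 (SD 0.502). Their log2 ratios were 3.45 and 3.28, and 1.78 and 1.98 against neurons of high Gap43. Sema3a, but not Nrg1, met the limit on cells with a value in Isl1 Ebf1 neurons alone against other neurons, which favoured a higher level there. Among adhesion molecules 17 of 36 compared were higher and 3 lower, with a median log2 ratio of 0.76, and against neurons of high Gap43 5 of 38 were higher and 5 lower. Pcdh10, a protocadherin, was at 2.36 (SD 2.23) in Isl1 Ebf1 neurons and 0.242 (SD 0.678) in other neurons, and Cntnap2, a neurexin-like protein, at 3.65 (SD 2.83) and 0.604 (SD 1.14). Ncam1 was lower, at 2.14 (SD 2.09) and 4.95 (SD 3.30). Their log2 ratios against neurons of high Gap43 were 1.93, 1.35 and -1.46.

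Peptides and secreted factors beside Tac1 included Gal, the precursor of galanin, at 0.685 (SD 2.18) in Isl1 Ebf1 neurons and 0.0382 (SD 0.293) in other neurons. Cbln2, a secreted synapse organizer, was at 1.05 (SD 1.61) and 0.0668 (SD 0.330). The log2 ratios of Gal and Cbln2 against neurons of high Gap43 were 1.16 and 2.27. Gal and Cbln2 met the limit on cells with a value in Isl1 Ebf1 neurons alone against other neurons, which favoured a higher level there. Pnoc, the precursor of nociceptin, was at 2.09 (SD 1.81) and 0.531 (SD 1.24), with a log2 ratio of 1.88 that was 0.18 against neurons of high Gap43. Of 15 compared genes of this kind 6 were higher and 2 lower, with a median log2 ratio of 0.55, and against neurons of high Gap43 5 of 14 were higher and 3 lower, with a median of 0.06. Of 21 compared ion channel genes 10 were higher and 0 lower, with 4 higher and 0 lower against neurons of high Gap43. The calcium channel gene Cacna1e was at 0.440 (SD 0.645) in Isl1 Ebf1 neurons and 0.0254 (SD 0.150) in other neurons, with a log2 ratio of 1.58 against neurons of high Gap43. Cacna1e, too, met the limit in Isl1 Ebf1 neurons alone against other neurons.

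Of 45 compared general neuronal genes 13 were higher and 2 lower, with a median log2 ratio of 0.36, while 11 of 23 newborn neuron genes were lower and 1 higher, with a median of -0.74. Compared with neurons of high Gap43, 1 general neuronal gene was higher and 3 were lower, with a median of -0.04, and 1 newborn neuron gene was higher and 1 lower. Over all genes 2.02% were higher and 1.53% lower there, so counts of 1 gene are no result about these groups. Stmn2, a microtubule regulator, was at 48.4 (SD 17.0) in Isl1 Ebf1 neurons and 20.7 (SD 11.4) in other neurons. Ina and Kif5c, an intermediate filament and a kinesin, were at 19.3 (SD 8.63) and 17.4 (SD 4.82) in Isl1 Ebf1 neurons, and at 6.78 (SD 7.48) and 7.81 (SD 5.90) in other neurons. Against neurons of high Gap43 the log2 ratios were 0.55 for Stmn2, 0.02 for Ina and -0.07 for Kif5c. Rbfox1, a neuronal splicing factor, was at 0.929 (SD 1.19) in Isl1 Ebf1 neurons and 0.0296 (SD 0.181) in other neurons, with log2 ratios of 3.62 and 2.23. Rbfox1 met the limit on cells with a value in Isl1 Ebf1 neurons alone against other neurons, which favoured a higher level there.

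Sox4, a factor of newborn neurons, was lower at 12.4 (SD 7.91) in Isl1 Ebf1 neurons and 27.4 (SD 11.8) in other neurons, with log2 ratios of -1.14 and, against neurons of high Gap43, -0.84. Ccnd2, a D-type cyclin, was at 0.119 (SD 0.318) and 1.92 (SD 3.81), with log2 ratios of -3.55 and, against neurons of high Gap43, -0.62. Sox2, a progenitor factor, was at 0.30 (SD 1.27) and 2.82 (SD 3.54), with a log2 ratio of -1.60 against neurons of high Gap43. Of 8 compared radial glia genes 6 were lower and 0 higher, against 2 of 7 lower with neurons of high Gap43 as the comparison, where Vim had a log2 ratio of 0.09. The summed level of the 4 progenitor markers Hes1, Hes5, Sox2 and Vim was 2.31 in Isl1 Ebf1 neurons (0 to 32.1 over cells), 8.50 in other neurons (0 to 45.3) and 44.0 in progenitors. Hes5 is a gene of the rule, so this sum was fixed in part by the choice of cells. For endothelial cells, microglia and mural cells, 1, 0 and 1 marker had a row, with summed levels of 0.00699, 0 and 0 in Isl1 Ebf1 neurons.

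**Figure D4:**
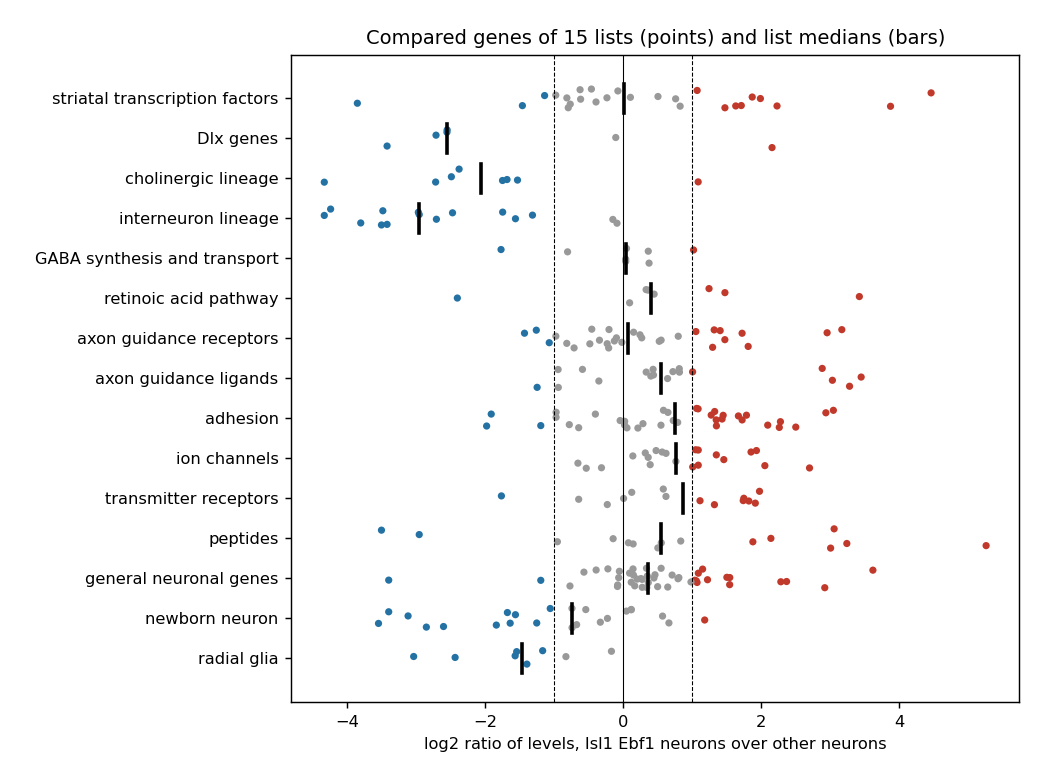
Log2 ratio of each compared gene of 15 lists in Isl1 Ebf1 neurons over other neurons, red where at least 2-fold higher, blue where at least 2-fold lower, with list medians as black bars. The cholinergic, interneuron and Dlx medians lie below -2, while the adhesion and channel medians lie above 0. The Dlx list includes the antisense transcripts Dlx1as and Dlx6os1.

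Outside the lists, the leading gene was Dlc1, a GTPase activating protein, at 2.01 (SD 1.79) in Isl1 Ebf1 neurons and 0.0189 (SD 0.173) in other neurons, a log2 ratio of 4.90. It was found in 79.1% of the Isl1 Ebf1 neurons (70.3% to 86.3%), against 1.61% of other neurons and 3.97% of progenitors. Lypd1, a Ly6 family protein, was at 1.45 (SD 1.67) and 0.0393 (SD 0.642), and Syt13, a synaptotagmin, at 1.29 (SD 1.16) and 0.0346 (SD 0.219). The most abundant of the leading genes were Vcan, the proteoglycan versican, at 17.7 (SD 8.12) in Isl1 Ebf1 neurons and 1.23 (SD 2.49) in other neurons, and Rgs2, a regulator of G protein signalling, at 8.72 (SD 6.72) and 0.627 (SD 1.24). Vcan had values from 0 to 56 (median 22) in Isl1 Ebf1 neurons and from 0 to 31 (median 0) in other neurons.

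The remaining leading higher genes were Sybu, P2ry14, Rph3a, Cpne5, Tcf7l2, Ntrk3, Tspan7, Dok5, Med12l and Hspa12a, with log2 ratios from 2.93 to 3.71. P2ry14 lies inside Med12l on the opposite strand, so the pair cannot be told apart without the strand of counting. The same limit holds for Lypd1, Zic1 and Sp9, which overlap Gpr39, Zic4 and Cir1. It also holds for Rarb, Oprm1, Hspa12a and Ina, which overlap Top2b, Ipcef1, Eno4 and Nt5c2. Further named genes overlap transcripts of the opposite strand. When set against neurons of high Gap43, the log2 ratios were 3.44 for Dlc1, 3.28 for Lypd1, 2.71 for Syt13, 1.71 for Vcan and 1.87 for Rgs2. All 15 leading higher genes lay above 1 there, the lowest at 1.25 (Tspan7). They were picked as the highest in the same Isl1 Ebf1 neurons over other neurons, which include those of high Gap43. Staying above 1 is therefore not independent of their choice. Against other neurons, Vcan, Rgs2 and Tspan7 met the limit on cells with a value in both groups. The remaining leading higher genes met it in Isl1 Ebf1 neurons alone, which favoured a higher level there.

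The leading lower genes included Sox3, a progenitor factor, at 0.0210 (SD 0.169) in Isl1 Ebf1 neurons and 0.806 (SD 1.5) in other neurons. Sox3 met the limit on cells with a value in other neurons alone, which favoured a higher level there. Tcf4, a basic helix-loop-helix factor, was at 0.293 (SD 0.510) and 4.02 (SD 3.96), and Qk, an RNA-binding protein, at 0.293 (SD 0.635) and 3.04 (SD 2.34). Against neurons of high Gap43 their log2 ratios were -2.12, -0.80 and -1.18. Against Isl1 Lhx8 neurons, 13 of the 15 leading higher genes and 11 of the 15 leading lower genes were the same, with the Isl1 Ebf1 neurons shared by both comparisons. Pcp4, a calmodulin-binding protein, entered the higher end there, at 0.957 (SD 2.22) in Isl1 Ebf1 neurons and 0.0570 (SD 0.514) in Isl1 Lhx8 neurons. It met the limit in Isl1 Ebf1 neurons alone.

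The Isl1 Ebf1 neurons varied among themselves along Ebf1. Over the 110 cells, Spearman correlations of levels with Ebf1 were highest for Bcl11b (0.60), Plk2 (0.58), Ntrk3 (0.51), Homer2 (0.49), Bcl11a (0.46) and Robo2 (0.46). They were lowest for Ndn (-0.56), Khdrbs3 (-0.56), Tubb5 (-0.54) and Celf4 (-0.52), and Tle4 was at -0.48. These are descriptions over cells of 1 library, which share the scaling of their totals, and carry no test.

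Grouped by Ebf1 value, Bcl11b was at 1.80 (SD 2.69) in the 15 neurons with a value of 3 to 5, 3.54 (SD 3.27) in the 8 with 6 to 11 and 5.62 (SD 3.21) in the 87 with 12 or more. The kinase gene Plk2 was at 0.530, 0.861 and 2.76 in the same order, and Ntrk3, the receptor for neurotrophin-3, at 0.0530, 0.479 and 1.38. Ndn, the imprinted necdin gene, ran the other way at 16.2 (SD 4.12), 12.5 (SD 6.43) and 9.81 (SD 5.64). Tle4 was at 12.5, 10.7 and 7.44. Gap43 was at 20.7, 14.5 and 17.4 and thus followed no such order.

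**Figure D5:**
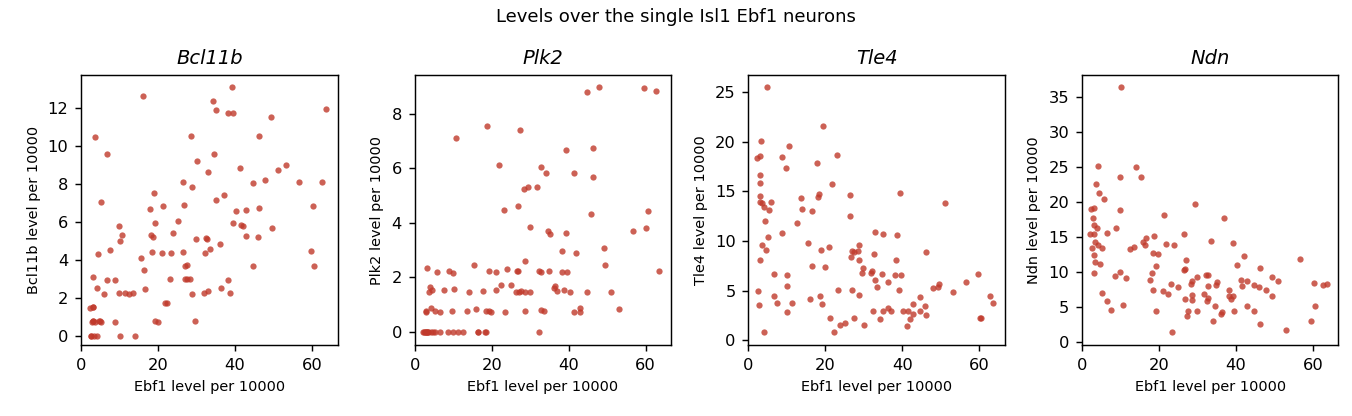
Level per 10000 of Ebf1 (horizontal) and of Bcl11b, Plk2, Tle4 and Ndn (vertical) in each of the 110 Isl1 Ebf1 neurons. Bcl11b and Plk2 are higher in cells with more Ebf1 (Spearman 0.60 and 0.58), Tle4 and Ndn lower (-0.48 and -0.56).

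Vim, Six3 and Nr2f2 had higher levels in the few cells of little Ebf1, with SDs above the levels. Vim, an intermediate filament of radial glia, was at 5.57 (SD 8.58), 3.06 (SD 3.92) and 1.09 (SD 1.52) from low to high Ebf1. Six3 was at 2.33 (SD 3.84), 2.20 (SD 4.30) and 0.395 (SD 1.26), and Nr2f2, an orphan nuclear receptor of the caudal eminence, at 1.80 (SD 2.33), 1.24 (SD 3.36) and 0.448 (SD 1.25). The caudal eminence gene Nr2f1 was at 2.92, 1.05 and 1.46 and the progenitor gene Sox2 at 0.371, 0.191 and 0.299, and neither followed that order. The level of Zfp503 was 1.43, 1.91 and 2.64, while Meis2 was at 8.16, 13.8 and 13.4. The part of these other markers in the differences by Ebf1 was not tested.

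Isl1 correlated less with other genes. Spearman values with Isl1 were 0.40 for Dlk1, an imprinted Notch ligand relative, and 0.37 for Ebf1, and the lowest was -0.46 for Nnat.

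Tac1 did not follow Ebf1, with a Spearman correlation of -0.07. It was found in 45 of the 110 neurons, 21 of them with a value of at least 10 and 13 with a value of 1. Between the 45 neurons with Tac1 and the 65 without, 6560 genes with a value in at least 25% of either set were compared, and 62 (0.945%) were higher and 31 (0.473%) lower with Tac1. Nr2f2 was at 0.101 (SD 0.345) in neurons with Tac1 and 1.10 (SD 2.10) in those without, and the related receptor Nr2f1 at 0.620 (SD 1.16) and 2.34 (SD 4.06). Stmn2 was at 55.6 (SD 16.2) with Tac1 and 43.2 (SD 15.7) without.

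Gal was found in 22 of the 110 neurons, and 13 of these also carried Tac1. Its level was 1.22 (SD 2.78) with Tac1 and 0.299 (SD 1.56) without, and that of Aldh1a3 was 1.04 (SD 1.85) and 0.275 (SD 1.07). Bcl11a, a relative of Bcl11b, was lower with Tac1, at 1.81 (SD 1.96), than without, at 3.11 (SD 2.61). Xist was found in 60.0% of neurons with Tac1 and 38.5% of those without, and whether the sets differ in their embryos was not tested.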

How the data were processed

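The submitters' processing notes name Cell Ranger 3.0.2, bcl2fastq and the mouse build GRCm38. The deposited matrix holds 18088 gene rows and 4001 cells as whole numbers from 0 to 1245, and what the authors deposited is used as a score, because in 214 cells under 10% of values of genes with a mean near 1 were equal to 1, a gap that scaling and rounding can leave. Raw depth is unknown, and tests planned for counts were not used. No cell was removed from the reported results. For 9 repeated symbols the row of largest sum was kept. Levels, log2 ratios (pseudocount 0.05 per 10000), the 10% filter and the 2-fold limit are defined in the text, and were computed in Python 3.11.15 with numpy 2.4.6, pandas 2.3.3 and scipy 1.17.1 (Scrublet in scanpy 1.11.5). Shares carry exact (Clopper-Pearson) 95% intervals, and thinning to 10000 values left out no cell. Coordinates are those of GENCODE M21.

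The members, gene lists and markers were chosen with earlier results of these data known. Named genes are members of 30 lists, the 15 genes at each end of the comparisons with other neurons and with Isl1 Lhx8 neurons (without ribosomal protein genes and gene models), and the 10 genes best correlated with Ebf1 and with Isl1. Nr2f1, Bcl11a and Stmn2 among Tac1 neurons, and genes at the low end of correlations, were chosen after their values were seen. A gene among those best correlated with Isl1 is not reported here. The comparison was tested on simulated data with counting error alone, without the spread between cells of these values. Changes were set only in genes with a value in at least 10% of other neurons. The simulation therefore checks the calculation and not the calls in these data.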

Additional observations from a re-analysis of the deposited data

How the results depend on the processing

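The share of Isl1 Ebf1 neurons was 1.95% of cells where no Lhx8 value was allowed and 2.17% where Ebf1 had to be at least 12, and it stayed within the interval of the reported 2.75% under the other limits. Counts of genes moved by over 1.5 times with the pseudocount, the filter and the comparison cells. With a pseudocount of 0.2 there were 174 higher and 114 lower genes against other neurons, and 155 and 115 against Isl1 Lhx8 neurons, and with 0.01 there were 618 higher against Isl1 Lhx8 neurons. With a value required in 25% of cells, 145 genes were lower against other neurons and 152 against Isl1 Lhx8 neurons. Against Isl1 Lhx8 neurons of high Gap43, 501 were higher and 271 lower, a change within 1.5 times. With comparison cells of high Gap43, 187 were higher and 142 lower against other neurons. There the log2 ratios of Gap43 (-0.072), Id4 (-0.15), Kif5c (-0.073), Tle4 (-0.052), Zfhx4 (-0.10), Vim (0.090) and Btg2 (0.37) turned in direction. The median of general neuronal genes was -0.045 there and that of striatal factors -0.13. No other gene named in the text as higher or lower against other neurons turned in direction under the alternatives run. Leaving out the 6 cells called by Scrublet removed 0 Isl1 Ebf1 neurons. The low number of calls says little about doublets in evened-out values. Among cells with totals at or above the median of all cells, 366 of the 456 higher genes (80.3%) and 240 of the 258 lower genes (93.0%) stayed called. In those cells 383 of 9539 genes were higher and 338 lower against other neurons. The numbers of higher and lower genes thus lay closer together than the reported 456 and 258. The limits on Ebf1 of 12, on Gap43 and on totals were chosen after seeing the data. No paired analysis was possible because the pool is 1 sample. Raw depth per cell is unknown, so genes of low level are limited by an unknown depth.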

Other observations

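Of the neurons that met every limit but 1, 5 lacked Isl1 and 4 had too much Lhx8. The 5 Ebf1 neurons without Isl1 had an Ebf1 level of 10.3, a Meis2 level of 5.32, a Zfp503 level of 0.998 and a Tac1 level of 0. Their level of Nr2f2 was 8.82, against 0.685 in the Isl1 Ebf1 neurons, and their summed level of the hypothalamic markers Otp, Sim1, Hmx2 and Hmx3 was 5.49, against 0.175. The 4 Isl1 Ebf1 neurons with Lhx8 of at least 3 had an Ebf1 level of 13.4, a Meis2 level of 6.45 and a Tac1 level of 0.184. With so few cells these are values only.

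The 4 haemoglobin markers, transcripts of red blood cells, had a summed marker level of 2.17 in Isl1 Ebf1 neurons (0 to 10.3 over cells) and 1.92 in other neurons (0 to 54.0). Of 12 compared genes of the immediate early and stress response, 1 was higher (Klf6) and 2 were lower (Btg2 and the heat shock gene Hspa1a) in Isl1 Ebf1 neurons than in other neurons. Against other neurons of high Gap43, 0 of 11 were higher and 0 lower, and the log2 ratios of Klf6, Btg2 and Hspa1a were 0.86, 0.37 and -0.50. Hspa1a met the limit on cells with a value in other neurons alone, which favoured a higher level there.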
